A study of Mus musculus with 11 samples.

Results

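The genes described here are 10 genes of major histocompatibility complex (MHC) class I antigen presentation: B2m, H2-K1, H2-D1, H2-Q6, Tap1, Tap2, Tapbp, Psmb8, Psmb9 and Nlrc5. They were named for their role and matched by symbol, and were chosen with earlier results of these data known. All 10 were found among the 27998 genes of the 10X gene table and among the 23997 symbols of the Smart-seq2 (SS2) tables. They were followed across 5 droplet (10X) libraries and 6 SS2 plates of mesenchymal cells sorted from livers of male mice aged 10 to 16 weeks. Every group, controls included, came from the Pdgfrb-BAC-eGFP reporter on a C57BL/6 background, in which a bacterial artificial chromosome with the Pdgfrb promoter drives green fluorescent protein, so only cells that express the reporter could be sorted. The sort also required cells without CD45 (leucocytes) and CD102 (endothelium).

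Each 10X library pooled 3 mice, and there was 1 library for each condition and digestion. Digestion protocol 1 minced the liver and digested it ex vivo, and gave fibroblasts (FB) and vascular smooth muscle cells (VSMC), from uninjured mice and after 6 weeks of repeated carbon tetrachloride (CCl4, 0.25 µl/g). Protocol 2 perfused the liver with enzymes and added a density gradient, and gave hepatic stellate cells (HSC), from uninjured mice, 72 h after 1 dose of CCl4 and after 6 weeks of CCl4. By the study's methods, the 6 week livers were taken sooner after their last dose than the 72 h livers. An overnight fast before the dose is described for the 72 h mice only. In the SS2 plates, uninjured wells stood beside wells from mice 14 days after bile duct ligation (BDL, plates 1, 2 and 4) or after 6 weeks of CCl4 (plates 3 and 5), and plate 6 was uninjured throughout. Plates 1 to 5 were made with protocol 1. Plate 6 held cells of both protocols, and the labels do not say which wells had which.

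MHC class I molecules display peptides from inside the cell to CD8 T cells and natural killer cells. Proteasomes cut proteins into peptides, the transporter made of Tap1 and Tap2 moves them into the endoplasmic reticulum, and tapasin (Tapbp) holds the heavy chain, which is paired with beta-2-microglobulin (B2m), beside the transporter until a peptide is bound. H2-K1 and H2-D1 encode the classical heavy chains, and H2-Q6 belongs to the Qa region of non-classical genes. Psmb8 and Psmb9 are proteasome subunits that take the place of constitutive subunits in the interferon-induced immunoproteasome, and Nlrc5 is the transactivator of class I genes. Almost every nucleated cell carries class I molecules, and interferons raise them. Stellate cells store vitamin A and line the sinusoids, while fibroblasts sit around portal tracts and larger vessels.

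On GRCm38, 8 of the genes lie on chromosome 17, in or beside the MHC: Tapbp at 33915899-33929292, H2-K1 at 33996017-34000347, Psmb9 at 34181987-34187764, Tap1 at 34187553-34197225, Psmb8 at 34197721-34201454, Tap2 at 34203527-34216321, H2-D1 at 35262730-35267499 and H2-Q6 at 35424850-35430055. B2m lies on chromosome 2 at 122147686-122153083 and Nlrc5 on chromosome 8 at 94434356-94527272. Tap1 and Psmb9 are transcribed in opposite directions from neighbouring starts, their promoter windows share 275 bases, and their annotated 5′ ends overlap, where SS2 reads, which carry no strand, cannot be told apart. Class I heavy-chain genes are near copies of each other, and reads can be split between H2-K1, H2-D1, H2-Q6 and their neighbours, so values of single heavy-chain genes are uncertain in both assays.

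RefSeq promoter windows (250 bases before the start to 50 after it, GRCm38.p6) were found for 8 of the 10 genes, and Tap2 and Nlrc5 had none in the table used. The windows of H2-D1, Tapbp, Psmb8 and Psmb9 lie inside the gene spans given above, so their RefSeq starts are not the outer ends of those spans. The 250 bases before the start are printed for B2m, for the 3 heavy-chain genes and for Tap1, because the heavy chains were far lower 72 h after CCl4 than without injury, B2m less so and Tap1 least of these 5. Capitals mark 3 motifs searched on both strands, the core bound by interferon regulatory factors (AANNGAAA), the gamma-activated site (TTCNNNGAA) and the CCAAT box (CCAAT). The windows printed are B2m (chr2:122147437-122147686, plus strand), H2-K1 (chr17:34000348-34000597, minus strand), H2-D1 (chr17:35262844-35263093, plus strand), H2-Q6 (chr17:35424600-35424849, plus strand) and Tap1 (chr17:34187306-34187555, plus strand), each 5′ to 3′ in the direction of transcription.
B2m: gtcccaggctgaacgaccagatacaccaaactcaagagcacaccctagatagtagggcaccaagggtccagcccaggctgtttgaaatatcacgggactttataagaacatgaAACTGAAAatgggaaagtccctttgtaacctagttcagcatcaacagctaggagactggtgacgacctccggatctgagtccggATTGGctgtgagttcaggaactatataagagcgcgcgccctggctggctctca
H2-K1: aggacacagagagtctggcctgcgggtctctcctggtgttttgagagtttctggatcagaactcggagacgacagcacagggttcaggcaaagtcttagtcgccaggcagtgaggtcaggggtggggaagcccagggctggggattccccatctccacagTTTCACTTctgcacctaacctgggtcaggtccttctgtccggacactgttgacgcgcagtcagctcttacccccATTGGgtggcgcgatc
H2-D1: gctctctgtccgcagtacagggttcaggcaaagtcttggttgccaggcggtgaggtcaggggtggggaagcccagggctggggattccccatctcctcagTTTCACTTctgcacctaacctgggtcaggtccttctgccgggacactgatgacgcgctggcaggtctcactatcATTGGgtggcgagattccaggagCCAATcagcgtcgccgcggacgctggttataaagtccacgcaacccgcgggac
H2-Q6: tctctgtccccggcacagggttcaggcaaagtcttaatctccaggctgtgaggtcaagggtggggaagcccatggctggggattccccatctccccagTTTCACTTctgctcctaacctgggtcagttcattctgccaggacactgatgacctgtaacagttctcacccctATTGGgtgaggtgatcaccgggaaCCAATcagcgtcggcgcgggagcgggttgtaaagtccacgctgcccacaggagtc
Tap1: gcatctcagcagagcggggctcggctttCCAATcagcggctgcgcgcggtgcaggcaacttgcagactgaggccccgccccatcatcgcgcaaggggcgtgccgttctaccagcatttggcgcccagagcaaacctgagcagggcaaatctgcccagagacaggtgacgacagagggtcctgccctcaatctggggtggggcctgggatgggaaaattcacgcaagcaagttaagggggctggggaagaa

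The interferon regulatory factor core began at position -137 from the start of B2m, -90 of H2-K1, -150 of H2-D1 and -152 of H2-Q6. In the 3 heavy-chain genes it was the same 8 letters on the opposite strand. A further window of H2-K1, not printed, held the core at position -104. No match lay in the windows of Tap1, Psmb9, Psmb8 or Tapbp, and 23.9% of all 32851 promoters in the table held one. A gamma-activated site was found in Psmb8 alone, at position -97, against 8.3% of all promoters. All windows but that of Psmb8 held a CCAAT box, against 37.4% of all promoters. These matches describe letters and not bound sites.

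Between 5454 and 7310 cells per 10X library were kept, with 25962957 to 86661230 UMIs per library and a median of 4299 to 11343.5 UMIs per cell. Pairs of libraries shared 33 to 74 cell barcodes, at most 1.31% of the smaller library. Clusters were named from marker genes. In the uninjured libraries, Ecm1 stood at 15299 CPM (UMIs of a gene per 1000000 UMIs summed over the cells of a class) in HSC-like cells, 568 in FB-like cells and 291 in those of the VSMC-like class, Clec3b at 0.1, 2989 and 303, and Myh11 at 18.6, 31.8 and 1857. The classes held 6850, 5431 and 7120 HSC-like cells (uninjured, 6 weeks and 72 h), 4089 and 2697 FB-like cells (uninjured and 6 weeks) and 1639 and 2946 VSMC-like cells. With 1 library per condition, differences between libraries have no replicate check. Intervals are 95% Poisson intervals of the counts and cover counting error only. A gene was called higher or lower at 1.5-fold, among genes with at least 20 CPM in the higher group.

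Uninjured HSC-like cells carried the highest level of all 10 genes. The shared light chain B2m stood at 10931 CPM in HSC-like cells, 1701 in FB-like cells and 522 in VSMC-like ones. The classical heavy chains had the same order, with H2-K1 at 3109, 303 and 129 CPM and H2-D1 at 6367, 872 and 227 CPM. The non-classical H2-Q6 stood at 190 CPM in HSC-like cells against 1.04 in FB-like cells, a ratio of 183, and was a single UMI in VSMC-like cells. This was the widest gap among the genes listed.

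The transporter and the immunoproteasome followed the same order with smaller gaps. Tap1 stood at 69.6, 13.4 and 6.90 CPM in HSC-like, FB-like and VSMC-like cells, and Tap2 at 133, 44.2 and 35.2 CPM. Tapasin differed least between HSC-like and FB-like cells, with Tapbp at 292 against 205 CPM, and stood at 76.3 in VSMC-like cells. Psmb8 was measured at 297, 69.4 and 24.3 CPM and Psmb9 at 130, 26.2 and 9.21 CPM. The transactivator Nlrc5 was at 8.28 CPM in HSC-like cells and at only 2 and 3 UMIs in the other classes, which is too few for a ratio. Apart from Nlrc5 and H2-Q6, each gene thus had the order HSC-like, FB-like, VSMC-like.

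In ratios, HSC-like over FB-like was 6.42 for B2m, 10.2 for H2-K1, 7.30 for H2-D1, 5.21 for Tap1, 3.02 for Tap2, 1.42 for Tapbp, 4.28 for Psmb8 and 4.95 for Psmb9. Of the 9 genes at the minimum level, 8 were past 1.5-fold, where 24% of 6644 genes were. Against VSMC-like cells, 9 of 9 were past the fold, where 31.3% of 6675 genes were, from 3.79 for Tap2 to 28.1 for H2-D1. FB-like cells exceeded VSMC-like cells past the fold in 6 of 7 genes, where 27.2% of 6425 genes did, by 3.26-fold for B2m, 3.85-fold for H2-D1 and 2.34-fold for H2-K1, while Tap2 stood at 1.25-fold. B2m, H2-K1, H2-D1 and Psmb8 are among the HSC markers that the study chose on these libraries, so the direction of the class difference is not independent evidence. The digestion differed between HSC-like cells and the other classes, so class and digestion cannot be told apart in the comparisons with HSC-like cells. The FB-like and VSMC-like values come from 1 library, where the median depth was 4886 and 3218 UMIs per cell.

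**Figure D1:**
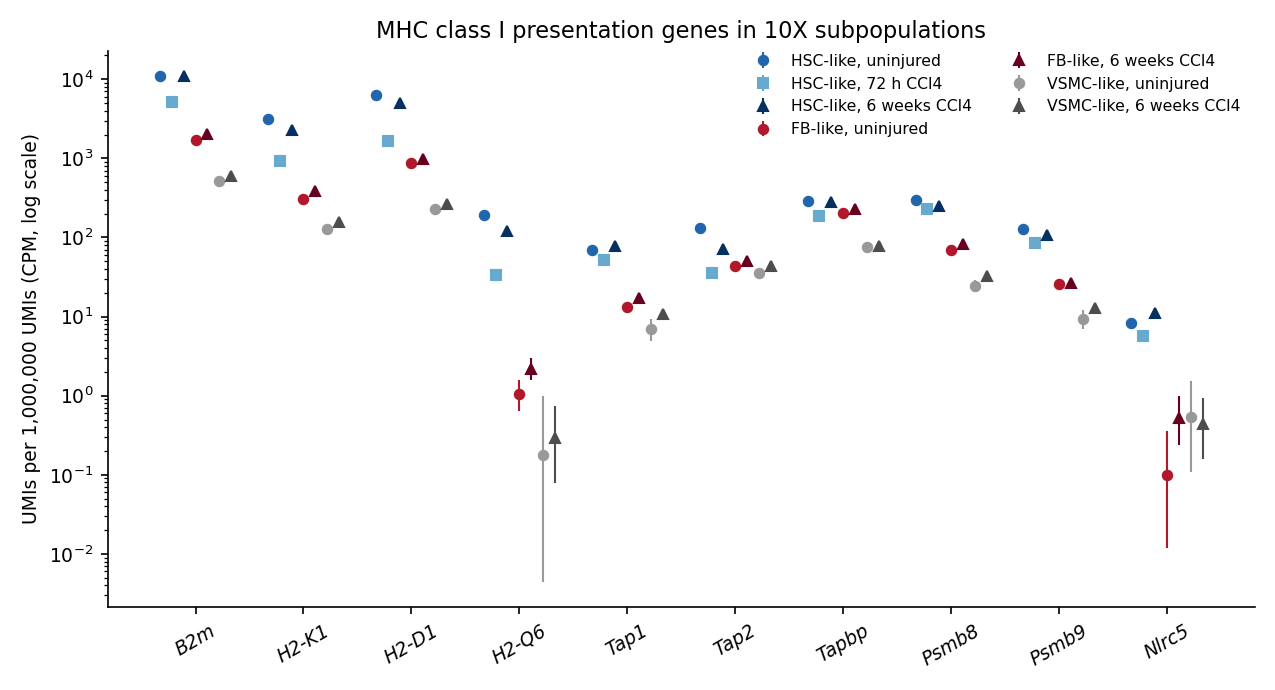
Level of each of the 10 genes in the 7 class-by-library sums of the 10X data, in CPM on a log axis, with 95% Poisson intervals that cover counting error only. HSC-like sums lie above FB-like sums and FB-like above VSMC-like sums for B2m, H2-K1 and H2-D1, and the 72 h HSC-like sum lies below the uninjured one for all 10 genes.

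The SS2 plates gave the same classes in separate libraries, with reads over whole transcripts. Of the kept wells, 646 were FB-like, 913 VSMC-like and 312 HSC-like, and the HSC-like wells were all uninjured and on plate 6. Levels are given as RPM (reads of a gene per 1000000 reads) summed over the wells of a portion, the wells of 1 mouse name on 1 plate. In the 2 HSC-like portions (154 and 158 wells) B2m stood at 8628 and 8854 RPM, H2-K1 at 4974 and 4981 and H2-D1 at 2995 and 3173. The single FB-like portion on the same plate, of 18 wells, stood at 2948 RPM for B2m and 1121 for H2-K1, and the 5 uninjured FB-like portions of the other plates at 2775 to 4256 and 675 to 1052. The HSC-like portions therefore lay above every uninjured FB-like portion on these genes. However, the HSC-like wells were all the kept wells of their 2 portions, and no other portion held any. HSC-like class and portion thus cannot be told apart in SS2, and the digestion of these portions is not given.

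Uninjured VSMC-like portions of plates 1 to 5 were lower again, at 719 to 1396 RPM for B2m, 228 to 333 for H2-K1 and 90.9 to 195 for H2-D1, and did not overlap with FB-like portions. Tapbp in the HSC-like portions, at 495 and 505 RPM, lay within the range of the 5 uninjured FB-like portions, 407 to 611, so tapasin did not separate these classes in SS2. Nlrc5 stood at 62.1 and 63.6 RPM in the HSC-like portions and at no more than 12.4 in an uninjured FB-like portion. H2-Q6 was listed at 0 in every SS2 well, HSC-like wells included, where the 10X libraries gave it 190 CPM. Psmb8 stood at 204 and 172 RPM and Psmb9 at 81.9 and 64.1 in the HSC-like portions.

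At 72 h after a single dose of CCl4, the heavy chains of HSC-like cells were at a small part of their uninjured level. H2-D1 stood at 1635 CPM against 6367 in uninjured cells, a ratio of 0.257 (95% interval 0.255 to 0.258). H2-K1 stood at 934 against 3109 CPM, a ratio of 0.300 (0.298 to 0.303). H2-Q6 had the lowest ratio of the genes listed, 0.175 (0.168 to 0.183), at 33.3 against 190 CPM. The heavy chains were thus 3.33 to 5.70-fold lower, more than their partner B2m.

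B2m stood at 5150 against 10931 CPM, a ratio of 0.471 (0.469 to 0.473). The transporter chains differed in size of change. Tap2, at 35.7 against 133 CPM, had a ratio of 0.268 (0.256 to 0.280), and its partner Tap1, at 51.5 against 69.6 CPM, a ratio of 0.739 (0.706 to 0.774). Tap1 was thus the higher of the pair in ratio by a margin beyond counting error, though without replicates.

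Tapbp stood at 186 against 292 CPM, a ratio of 0.639 (0.624 to 0.654). Of the immunoproteasome genes, Psmb8 stood at 232 against 297 CPM (0.781, 0.764 to 0.799) and Psmb9 at 86.0 against 130 (0.664, 0.641 to 0.687). Nlrc5 stood at 5.70 against 8.28 CPM (0.689, 0.601 to 0.790), below the minimum level. Of the 9 genes at the minimum level, 7 were lower past 1.5-fold and 0 higher, where 26.1% of 6233 genes were lower and 13.3% higher, and the median log2 difference was -1.09 against -0.21 over all genes tested.

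Tapbp and Psmb9 lay just past the fold, at 1.57-fold and 1.51-fold lower, and Tap1 and Psmb8 just short of it, at 1.35-fold and 1.28-fold. With TMM scaling, which moved the median of all genes from -0.21 to -0.01 and the shares of all genes to 19.43% higher and 16.66% lower, 5 of the genes were lower past the fold. In CPM, 9.55% of all genes were lower past 2-fold. The 5 genes were B2m, H2-K1, H2-D1, H2-Q6 and Tap2, which are also the 5 that passed 2-fold. Their log2 difference ran from -1.11 to -0.84 for B2m, -1.99 to -1.71 for H2-D1 and -2.59 to -2.26 for H2-Q6 over 9 alternatives of scaling and cell choice.

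Depth differed between these libraries, with a median of 6717.5 UMIs per HSC-like cell in the uninjured and 11282 in the 72 h library. Counted per cell, H2-D1 was at 43.1 UMIs in uninjured and 19.2 in 72 h cells, H2-K1 at 21.1 and 11.0, and H2-Q6 at 1.29 and 0.392. B2m was at 74.0 and 60.6 UMIs per cell. Another 5 genes were higher per cell at 72 h and lower in CPM, namely Tap1 at 0.471 and 0.606 UMIs per cell, Tapbp at 1.98 and 2.19, Psmb8 at 2.01 and 2.73, Psmb9 at 0.877 and 1.01 and Nlrc5 at 0.0561 and 0.0671. Tapbp and Psmb9 are among the 7 genes counted as lower past the fold in CPM. The heavy chains, B2m and Tap2 (0.904 and 0.420 UMIs per cell) were lower on both counts.

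Other genes of the pathway were read from lists and counted in CPM only, not again with TMM scaling. In CPM, 26.1% of 6233 genes were lower at 72 h and 13.3% higher. Of 8 other class I genes at the minimum level, 6 were lower at 72 h and 0 higher. H2-T23, the Qa-1 heavy chain that presents leader peptides, had a ratio of 0.155, and H2-Q4 stood at 0.319, H2-M3 at 0.350, Hfe at 0.451 and H2-Q7 at 0.482. H2-Ke6, a dehydrogenase gene named for its place in the MHC, was the sixth at 0.559. H2-T22 at 0.988 and Fcgrt, the neonatal Fc receptor chain that also pairs with B2m, at 1.20 did not pass the fold, so heavy chains did not all move alike.

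Of 11 genes of class I assembly and peptide supply, 5 were lower and 1 higher at 72 h, against 26.1% and 13.3% of all genes. The lower ones were Canx (0.469), a chaperone of newly made heavy chains, Erap1 (0.399), which trims peptides in the endoplasmic reticulum, the tapasin relative Tapbpl (0.536), Psme2b (0.644) and Psmb10 (0.650), the third immunoproteasome subunit. Ifi30, a lysosomal thiol reductase of class II presentation, was higher at 2.21. Calr at 0.856 and Pdia3 at 0.817 did not pass the fold. The constitutive subunits that the immunoproteasome replaces were 0 of 3 past the fold in either direction, with Psmb5 at 0.728, Psmb6 at 0.839 and Psmb7 at 0.902.

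Of 18 regulators at the minimum level, 8 were lower and 0 higher at 72 h, against 26.1% and 13.3% of all genes. Irf1, an interferon regulatory factor that binds class I promoters, stood at 70.5 against 297 CPM, a ratio of 0.237. Among the others, Irf2 was at 0.532, Stat2 at 0.613, the interferon gamma receptor chain Ifngr1 at 0.559, Rela at 0.622, Nfkb1 at 0.650 and the feedback inhibitor Socs1 at 0.456. Class II genes and co-signal genes such as Cd274 had 0 members at the minimum level in HSC-like cells.

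Other values moved with this comparison, and their part in it was not tested. Heat shock genes were lower in 8 of 9, immediate early genes in 7 of 9 and interferon-stimulated genes in 6 of 13. Of all genes, 26.1% were lower. A cluster with Cxcl10 and Irf1 among its 10 leading genes, called stress-led here, held 33.7% of uninjured HSC-like cells and 1.45% at 6 weeks. Its other leading genes, such as Gm12216 and Fcna, are not on the stress lists. The 72 h cells were clustered in a separate run with the uninjured cells. In that run the stress-led cluster held 2573 uninjured and 0 72 h cells, but most HSC-like clusters there were nearly all of 1 library. Without the cells of the first cluster the ratio was 0.262 for H2-D1, 0.303 for H2-K1 and 0.465 for B2m. Then 7 genes were lower past the fold, where 27.06% of all genes were. A cluster with more Irf1 and Cxcl10 in uninjured cells, at 565 and 1309 CPM against 413 and 729, was not left out. HSC markers were lower in 6 of 7 at 72 h. Markers of other cells summed to 3.35 against 2.48 CPM for leucocytes, with 0 of 6 at the minimum level, 118 against 57.9 for endothelium, 11.9 against 54.0 for hepatocytes, 33.5 against 1.10 for mesothelium, 246 against 30.5 for fibroblasts and 1891 against 594 for VSMC, with 3 of 4 VSMC markers at the level higher.

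**Figure D2:**
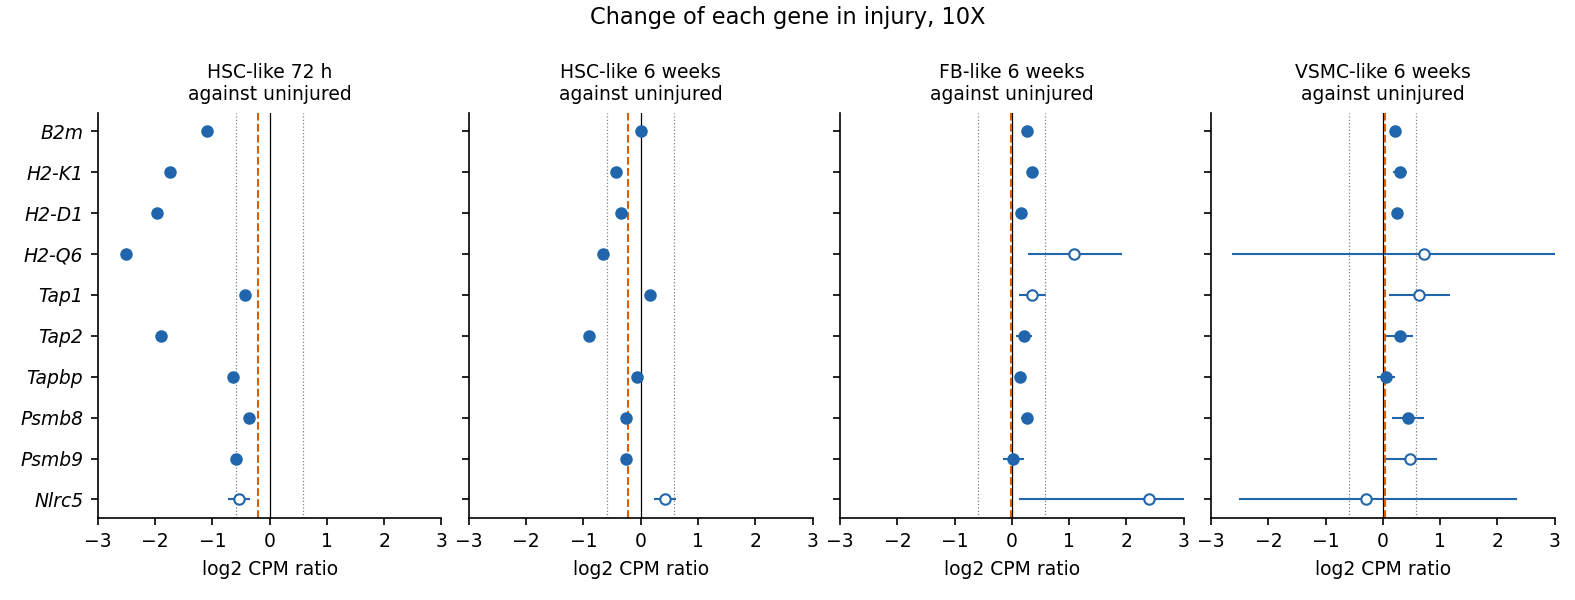
Log2 ratio of injured over uninjured CPM for each gene in the 4 contrasts within a class and protocol, with 95% counting intervals. Filled points have at least 20 CPM in the higher group and open points do not, dotted lines mark 1.5-fold, the dashed line marks the median of all genes tested, and the intervals of Nlrc5 in FB-like and H2-Q6 in VSMC-like cells run past the axis. The 72 h panel holds 7 filled points past the lower line, and the FB-like and VSMC-like panels hold no filled point past either line.

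After 6 weeks of CCl4, most of the 10 genes in HSC-like cells were near their uninjured level. B2m stood at 10954 against 10931 CPM, a ratio of 1.00. The heavy chains were lower, H2-K1 at 2308 against 3109 CPM (0.742), H2-D1 at 5027 against 6367 (0.790) and H2-Q6 at 120 against 190 (0.631). Tap2, at 71.6 against 133 CPM (0.536), was lower too, while its partner Tap1, at 77.4 against 69.6 (1.11), was not. Tap2 and H2-Q6 thus had the lowest ratios of the 10 genes.

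Tapbp (0.951), Psmb8 (0.837) and Psmb9 (0.838) stood somewhat lower, and Nlrc5 was at 11.1 against 8.28 CPM, a ratio of 1.34 (1.18 to 1.53), below the minimum level. Of the 9 genes at the level, 2 were lower past the fold, H2-Q6 and Tap2, and 0 higher, where 11.3% of 6011 genes were lower and 6.19% higher. The median log2 difference of -0.26 was close to that of all genes, -0.22. With TMM or DESeq2 scaling the count of lower genes was 1, where 4.04% and 4.25% of all genes were lower. Tapbp then went from -0.07 to 0.13 and 0.12 on the log2 scale. The 72 h and 6 week comparisons share the uninjured library, so their values are given side by side only. Directly, at 72 h and 6 weeks respectively, HSC-like cells held 1635 and 5027 CPM of H2-D1 and 5150 and 10954 CPM of B2m.

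Interferon-stimulated genes were higher in 6 of 13 at 6 weeks and lower in 0, where 6.19% of 6011 genes were higher. The 6 were Rsad2 at 2.08, Ifi44 at 2.05, Ifit3 at 1.90, Isg15 at 1.81, Ifit1 at 1.59 and Irgm1 at 1.53. Among 18 regulators, Irf7 was higher at 2.86 and Irf1 lower at 0.592. Of all 6011 genes, 11.3% were lower. Of the class I assembly genes, 2 of 10 were lower, Canx at 0.633 and Erap1 at 0.665, and 0 of 8 other class I genes passed the fold. In the same sum 0 of the genes listed, of the assembly genes and of the other class I genes were higher past the fold. Tap1, at 77.4 against 69.6 CPM, and Nlrc5, at 11.1 against 8.28 and below the minimum level, were nominally higher. HSC markers were lower in 4 of 7 at 6 weeks, and markers summed to 523 against 30.5 CPM for fibroblasts, 995 against 594 for VSMC, 38.1 against 1.10 for mesothelium and 2.14 against 2.48 for leucocytes. The cells also lay in other clusters, since 3 clusters with 34.3%, 33.7% and 20.9% of uninjured HSC-like cells held 1.80%, 1.45% and 1.80% at 6 weeks. The part of these differences in the values was not tested.

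In FB-like cells after 6 weeks of CCl4, all 10 genes were nominally higher, by less than the fold for the 7 at the minimum level. B2m stood at 2052 against 1701 CPM (1.21), H2-K1 at 387 against 303 (1.28) and H2-D1 at 975 against 872 (1.12). Tap2 at 1.16, Tapbp at 1.11, Psmb8 at 1.20 and Psmb9 at 1.02 were close behind. Past 1.5-fold were 0 of 7 genes in either direction, where 4.68% of 6010 genes were higher and 1.81% lower, and the median log2 difference was 0.21 against -0.02 over all genes. Below the level, Tap1 stood at 17.2 against 13.4 CPM and H2-Q6 at 2.20 against 1.04.

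In VSMC-like cells after 6 weeks of CCl4, 9 of the 10 genes were nominally higher, again by less than the fold for those at the level. B2m stood at 602 against 522 CPM (1.15), H2-K1 at 158 against 129 (1.22), H2-D1 at 268 against 227 (1.18), Tap2 at 43.1 against 35.2 (1.22), Tapbp at 79.2 against 76.3 (1.04) and Psmb8 at 32.8 against 24.3 (1.35). In these cells too, 0 of 6 genes at the level passed the fold, where 6.98% of 5891 genes were higher and 2.41% lower, with a median log2 difference of 0.27 against 0.04. Tap1, at 10.6 against 6.90 CPM, and Psmb9, at 12.7 against 9.21, were below the level. H2-Q6 had 4 UMIs against 1, and Nlrc5, with 6 UMIs against 3, was nominally lower at 0.434 against 0.531 CPM. With DESeq2 scaling the log2 difference of Tapbp in VSMC-like cells went from 0.05 to -0.04, and with TMM factors to -0.0050. Taken over the whole protocol 1 library with no classes, in which FB-like cells went from 71.3% to 47.8%, the log2 difference turned to -0.04 for B2m, -0.15 for H2-D1 and -0.14 for Tapbp. VSMC markers were higher in 6 of 6 in FB-like cells at 6 weeks (1675 against 628.2 CPM summed), and their part in the values above was not tested.

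Within classes, the level depended on the cluster. Among FB-like clusters, that led by Ptn, Gas6 and Wif1 was the highest, with B2m at 2670 CPM uninjured and 3457 at 6 weeks and H2-K1 at 453 and 676. The cluster led by Pi16, a gene of adventitial fibroblasts, stood at 1323 and 1663 CPM of B2m and 229 and 265 of H2-K1. The cluster led by Penk and Cxcl13 stood at 1817 and 1918 CPM of B2m, and made up 18.2% of FB-like cells in the uninjured library and 40.7% at 6 weeks, while the Pi16 cluster went from 36.8% to 18.4%. Each of these clusters held more B2m at 6 weeks than without injury.

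VSMC-like clusters differed more widely. The cluster led by Tnnt2 and Npnt held 1214 and 1357 CPM of B2m and 463 and 569 of H2-D1 (uninjured and 6 weeks). That led by Pln and Acta2, contractile genes, held 372 and 442 of B2m and 158 and 183 of H2-D1. It went from 53.9% to 30.9% of VSMC-like cells. A cluster led by Higd1b went from 36 cells to 361 and held 796 CPM of B2m and 401 of H2-D1 at 6 weeks. VSMC-like clusters of at least 50 cells in both libraries each held more B2m at 6 weeks. The part of these shifts in the class values was not tested. Cells of 1 sequencing library are not replicates, so these values describe the clusters only. The clusters were built from variable genes with the genes listed here left out.

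Among uninjured HSC-like clusters of at least 50 cells, B2m was narrow, at 9970 to 11477 CPM, and H2-D1 ran from 5220 to 6680. The cluster with Irf1 at 413 CPM and that with Irf1 at 161 held H2-D1 at 6592 and 6680 CPM and H2-K1 at 3154 and 3230. The cluster with the highest Irf1, 565 CPM, held 5644 and 2849, and that with Irf1 at 207 held 6023 and 2997. Of the 9 genes at the minimum level H2-Q6 varied most, from 114 to 229 CPM. It stood at 208 and 229 CPM in the clusters with Irf1 at 413 and 161, and at 132 in the cluster led by Ttyh1, Gcgr and Ngfr. Ngfr is the study's marker of HSC near the portal tract. Nlrc5, below the level, ran from 2.03 to 12.2 CPM.

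At 72 h the clusters split by collagen in B2m, H2-K1, H2-D1, Tap2 and Tapbp, while H2-Q6, Tap1, Psmb8 and Psmb9 overlapped. In the clusters with the most Col1a1, at 2205 to 2857 CPM, B2m stood at 3880 to 5006 CPM and H2-D1 at 1267 to 1553. In those with Col1a1 at 331 to 792 CPM, B2m stood at 5602 to 6835 and H2-D1 at 1816 to 2186. The highest of these values was still below every uninjured cluster on both genes. At 6 weeks no such split was seen in B2m, where the cluster with Col1a1 at 1225 CPM stood at 11511 and a cluster led by Clec4g and Mest at 12306.

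Clusters of dividing cells, led by genes such as Top2a, Ube2c and Cenpf, were higher than others of their library in H2-Q6 and the immunoproteasome genes. At 6 weeks the dividing cluster (101 cells) held 224 CPM of H2-Q6, 110 of Tap1, 440 of Psmb8 and 216 of Psmb9, against sums over all HSC-like cells of 120, 77.4, 249 and 108. Both dividing clusters at 72 h held H2-Q6 at 55.1 and 48.1 CPM, against 33.3 in all HSC-like cells, and Psmb8 at 262 and 393 against 232. B2m did not follow, at 10980 CPM in the dividing cluster of the 6 week library against 10954 in all.

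**Figure D3:**
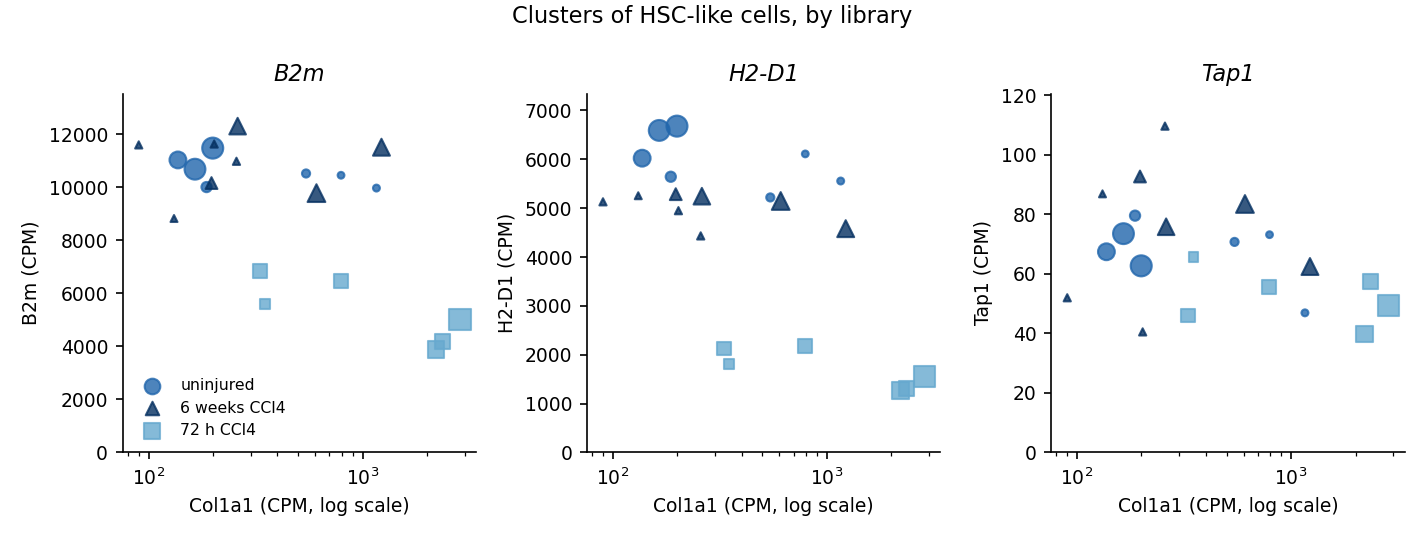
B2m, H2-D1 and Tap1 (CPM) against Col1a1 (CPM, log axis) in HSC-like clusters of at least 50 cells, with point area by number of cells and colour and shape by library. For B2m and H2-D1 the 72 h clusters lie below all uninjured clusters, and within 72 h the clusters with Col1a1 above 2000 CPM lie lower than those with less, while Tap1 overlaps between the libraries.

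HSC lie along the sinusoid from the portal tract to the central vein, and the study orders them by genes that mark either end. A score was made from 81 of those genes (52 portal and 29 central, none of the 10 genes among them), and the 1712 uninjured cells at each end were compared. H2-Q6 had the widest difference, at 247, 217, 181 and 117 CPM from the central to the portal end, a ratio of 0.474 (0.443 to 0.506). It was also lower at the portal end at 6 weeks (143 to 93.7 CPM, 0.654) and at 72 h (39.4 to 26.4 CPM, 0.671). The stress-led cluster held 42.9% of cells at the central end and 10.7% at the portal end of the uninjured library. Fos, an immediate early gene, was also higher at the central end, at 4133 CPM against 2833 at the portal end. Cxcl10, Irf1 and Hspa1a were not, at 432.5, 283 and 407 CPM against 478.1, 320.8 and 488. The part of these differences in the H2-Q6 values was not tested.

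The other heavy chains changed little along the score, with H2-D1 at 0.865, 0.949 and 1.05 and H2-K1 at 0.931, 1.05 and 1.11 (uninjured, 6 weeks and 72 h). B2m stood at 0.970, 1.05 and 1.09. Psmb9 was higher at the portal end in all 3 libraries, at 1.18, 1.54 and 1.22, as were Psmb8 at 1.11, 1.38 and 1.28 and Tapbp at 1.21, 1.18 and 1.26. Nlrc5 stood at 1.52 (1.11 to 2.1) in uninjured cells, on few UMIs. The median over all genes at the minimum level was itself above 1, at 1.0337, 1.0997 and 1.0881. In all 3 libraries H2-Q6 was thus higher at the central end and Psmb8, Psmb9 and Tapbp at the portal end. Col1a1 was lower at the portal end, at 0.837, 0.259 and 0.345 (uninjured, 6 weeks and 72 h). In the injured libraries the zonation order therefore also sorted cells by collagen.

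A collagen score was the summed share of Col1a1, Col1a2 and Col3a1. Along it the uninjured ends were alike for B2m (highest over lowest 0.993), H2-K1 (1.03) and H2-D1 (0.974). Psmb9 at 0.784, Psmb8 at 0.838 and Tap2 at 0.871 were lower at the high end. The median ratio of the 9 genes at the minimum level was 0.928 in uninjured cells, against 0.991 over all genes. At 72 h the median ratio of the 9 genes at the minimum level was 0.680, against 0.914 over all 5774 genes at that level. B2m stood at 0.715, H2-K1 at 0.680, H2-D1 at 0.640, Tap2 at 0.621, Tapbp at 0.688, Psmb8 at 0.618 and Psmb9 at 0.601, while Tap1 at 0.897, H2-Q6 at 0.853 and Nlrc5 at 1.02 were nearer to level. In the same cells Irf1 stood at 0.563 and Cxcl10 at 0.415, so other genes had ratios this low. The same ratios at 6 weeks were 1.00 for B2m, 0.866 for H2-K1, 0.824 for H2-D1 and 0.707 for Tap2. Psmb8 stood at 0.826 and Psmb9 at 0.811 at 6 weeks. The portal marker Ngfr was lower in high-collagen cells, at 0.818, 0.476 and 0.242 (uninjured, 6 weeks and 72 h). The collagen and zonation orders are thus not separate results. At 72 h the high-collagen cells were also deeper, with a median of 12892 UMIs against 9949.5, and collagen UMIs are part of the total that every CPM is divided by.

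**Figure D4:**
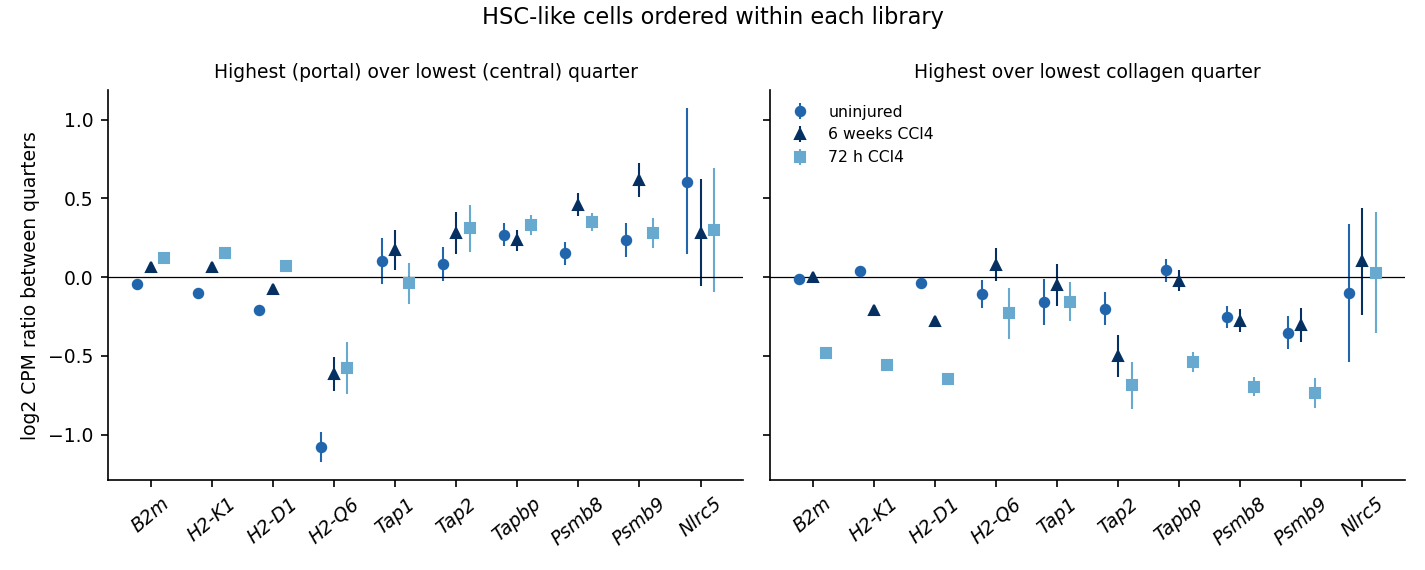
Log2 ratio of CPM between HSC-like cells with the highest and the lowest score, for the zonation score (portal minus central) and the collagen score, by library, with 95% counting intervals. H2-Q6 lies to the central side in all 3 libraries, and at 72 h B2m, H2-K1, H2-D1, Tap2, Tapbp, Psmb8 and Psmb9 lie between 0.601 and 0.715 on the ratio scale along the collagen score.

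The SS2 plates allowed a test, since plates 1 to 5 held 5 uninjured, 5 BDL and 4 CCl4 portions. A portion need not be a separate mouse, so the p-values measure the spread between portions. Total reads per portion ran from 20999176 to 96347394. The fit (edgeR quasi-likelihood with plate as a term, Benjamini-Hochberg adjustment over all genes tested) called 0 of the 9 genes with reads in any comparison, and H2-Q6 could not be tested.

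In FB-like wells after BDL, class I genes stood lower than in uninjured wells, with no call after adjustment. H2-K1 stood at 871, 1052, 807, 957 and 675 RPM in the uninjured portions (plates 1 to 5) and at 494, 424, 402, 212 and 734 RPM in the BDL portions. Only the BDL portion of plate 4, at 734, reached the uninjured range, and all 5 lay below the uninjured portion of their own plate. The mean was 873 ± 144 RPM (SD, n = 5) uninjured and 453 ± 188 (SD, n = 5) after BDL. The log2 difference was -1.06 (SE 0.29, unadjusted p = 0.00314, adjusted p = 0.474, edgeR). DESeq2 gave H2-K1 an adjusted p of 0.0217 and the edgeR fit without a filter on low counts 0.0346, and the log2 difference without uninjured replicate 2 (plate 2) was -0.67.

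B2m stood at 3068, 4256, 3011, 2775 and 2866 RPM in uninjured and 2082, 1444, 2258, 1387 and 2412 in BDL portions, which did not overlap (log2 difference -0.76, SE 0.25, unadjusted p = 0.0116, adjusted p = 0.681, edgeR). H2-D1 stood at 573, 683, 422, 596 and 418 RPM against 367, 292, 340, 286 and 572, with an overlap at plate 4 (-0.69, SE 0.23, unadjusted p = 0.0107, adjusted p = 0.681, edgeR). Tapbp stood at 407, 529, 435, 611 and 503 RPM against 413, 226, 229, 298 and 375 (-0.66, SE 0.27, unadjusted p = 0.0307, adjusted p = 0.744, edgeR). The means were 3195 ± 604 against 1917 ± 473 RPM for B2m and 538 ± 116 against 371 ± 117 for H2-D1 (SD, n = 5 each). For B2m and H2-D1 all 5 BDL portions, and for Tapbp 4 of 5, lay below the uninjured portion of their plate.

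Tap2 stood at 72.0, 65.2, 75.2, 84.6 and 80.7 RPM in uninjured and 60.4, 48.6, 31.1, 16.5 and 63.2 in BDL portions, again without overlap (-0.76, unadjusted p = 0.0742, adjusted p = 0.844, edgeR). B2m and Tap2 were thus 2 of the 7 genes at 20 RPM or more whose BDL portions all lay below all uninjured portions, where 2.02% of 7216 genes did so. Psmb8 overlapped fully, at 49.1 to 112.6 RPM uninjured and 50.3 to 75.5 after BDL. Tap1 (26.1 to 51.8 and 3.5 to 91.7 RPM), Psmb9 (7.7 to 58.5 and 1.0 to 19.3) and Nlrc5 (0.2 to 4.5 and 0 to 26.3) overlapped as well, and spread more widely.

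The median log2 difference of the 9 genes after BDL was -0.69 against 0.04 over all genes. Of 13273 genes tested, 0% passed the adjusted threshold, 822 had an unadjusted p under 0.05, 4 of the 9 genes listed among them, and DESeq2 called 233 higher and 88 lower. Without uninjured replicate 2 (plate 2), 338 genes had an unadjusted p under 0.05 and 0 of the 9 genes listed were among them, and with all of plate 2 left out 470 and 1. The BDL portions of 13 and 9 wells were the smallest. In these wells, 6 of 9 heat shock genes were lower at an unadjusted p under 0.05, and their sum ran from 1066 to 3998 RPM in uninjured and from 506 to 1306 in BDL portions. Their part in the values above was not tested. The mix of FB-like wells differed as well. The FB-like cluster led by Wif1 held 78 of 253 uninjured wells, plate 6 included, and 5 of 281 BDL wells. In the droplet libraries, the FB-like cluster with Wif1 among its leading genes was the highest for B2m and H2-K1. The part of this shift in the BDL values was not tested. Leucocyte markers summed to 1.74 to 10.6 RPM in uninjured and 2.98 to 8.72 in BDL portions, and hepatocyte markers to 3.63 to 64.9 and 0.731 to 810.

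Of the pathway genes in the FB-like BDL comparison, the proteasome activator subunit Psme1 was the 1 of 11 assembly genes lower at an unadjusted p under 0.05 (-0.86, unadjusted p = 0.0147, adjusted p = 0.718, edgeR). Among 21 regulators 3 were, with Irf1 (-1.59) and the interferon receptor chain Ifnar2 (-0.72) among them, at an unadjusted p of 0.0474 and 0.0200. Of 11 other class I genes 0 were, with a median of -0.14. Over all 13273 genes tested, 822 had an unadjusted p under 0.05 in either direction. Adjustment called 0 of the pathway genes.

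After 6 weeks of CCl4 the FB-like portions stood within or close to the uninjured range. H2-K1 stood at 901, 726, 727 and 607 RPM, H2-D1 at 542, 497, 511 and 447, and B2m at 2728, 3637, 3029 and 2679. Each of these overlapped with the uninjured portions, and log2 differences ran from -1.0 for Tap2 to 0.30 for H2-D1 with 0 genes of the list at an unadjusted p under 0.05. Tap2 was lower in both portions of plate 5, at 23.4 and 24.2 RPM, than in those of plate 3, at 70.8 and 57.7. Across 13273 genes 0% were called, with 311 at an unadjusted p under 0.05 and 58 higher and 58 lower by DESeq2.

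The difference between the BDL and CCl4 responses was itself tested in FB-like wells. It was -0.99 for H2-D1 (SE 0.36, unadjusted p = 0.0184, adjusted p = 1, edgeR) and -1.11 for H2-K1 (SE 0.46, unadjusted p = 0.0325, adjusted p = 1). Across all genes 0% were called, 523 had an unadjusted p under 0.05, and DESeq2 called 102 higher and 46 lower. A difference between the injuries was thus not shown for these genes.

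**Figure D5:**
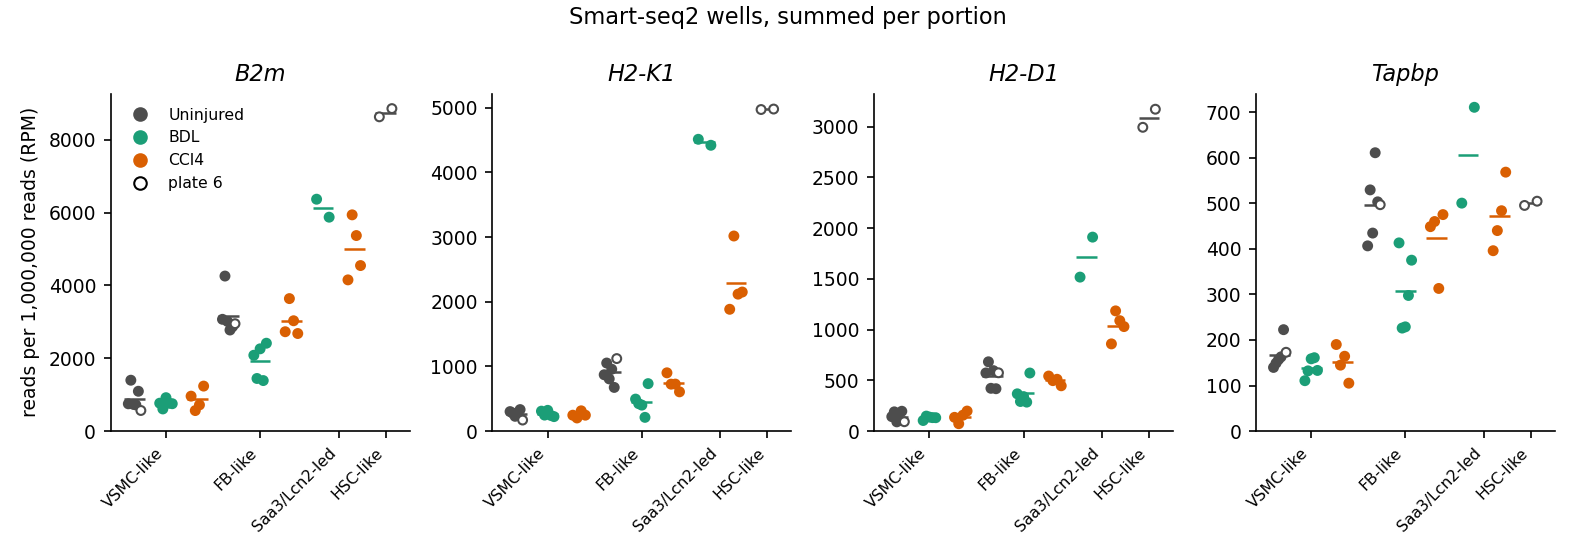
RPM of B2m, H2-K1, H2-D1 and Tapbp in each SS2 portion with at least 5 wells, by class and condition (colour), with short lines at the mean of the portions drawn and open points for plate 6. The BDL portions of FB-like wells lie below all uninjured portions for B2m, the CCl4 portions overlap with the uninjured ones for all 4 genes, and the HSC-like portions lie highest for B2m, H2-K1 and H2-D1 but not for Tapbp.

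VSMC-like portions overlapped between all conditions. H2-K1 ran from 228 to 333 RPM uninjured, 224 to 321 after BDL and 203 to 313 after CCl4, and B2m from 719 to 1396, 608 to 917 and 563 to 1235. Log2 differences of the 9 genes ran from -1.02 to 0.25 after BDL and from -1.17 to 0.63 after CCl4, with 0 at an unadjusted p under 0.05. After BDL 0.00767% of 13038 genes were called, which is 1 gene, the matrix protein gene Sparcl1 (log2 difference 1.20, adjusted p = 0.00801, edgeR), named after its value was seen. After CCl4 and for the difference between injuries 0% were called, with 463 and 535 genes at an unadjusted p under 0.05. DESeq2 called 283 higher and 95 lower after BDL, 113 and 76 after CCl4 and 105 and 56 for the difference. The edgeR count after BDL was 0 without BDL replicate 1 or without uninjured replicate 1 or 2, 5 higher and 2 lower without BDL replicate 5, and 3 and 1 without uninjured replicate 4. It was also 0 with plate 1, 2, 3 or 5 left out.

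The responses of FB-like and VSMC-like wells were compared by an interaction term (limma-voom, both classes of a portion as a block). For H2-K1 the BDL response of FB-like wells was lower by -0.73 on the log2 scale (SE 0.27, unadjusted p = 0.0145, adjusted p = 0.533), so a difference between the classes was not shown at the adjusted threshold. The term called 0.0275% of 14533 genes for BDL, namely Abcc4, Adcy2, Cpq and Rhob, named after their values were seen, and 0% for CCl4, where 673 genes had an unadjusted p under 0.05. For CCl4 the lowest p among the genes listed was that of Tap2 (-1.34, SE 0.54, unadjusted p = 0.0226, adjusted p = 0.998).

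Summed over all kept wells of a portion, the picture depended on which cells the portion held. After CCl4 H2-K1 was higher by 1.00 (SE 0.40, unadjusted p = 0.0308, adjusted p = 1, edgeR) and H2-D1 by 0.91 (SE 0.40, unadjusted p = 0.0441, adjusted p = 1), while FB-like and VSMC-like wells alone had H2-K1 at 0.05 and -0.11. In such sums a change in the share of a cell type and a change in RNA per cell cannot be told apart. Of 15083 genes 0% were called for CCl4 and 0% for BDL, with 734 and 1374 at an unadjusted p under 0.05, and DESeq2 called 265 higher and 41 lower for CCl4 and 419 and 139 for BDL.

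The wells outside the named classes carried high class I levels. A cluster of 167 wells led by Saa3, Hp, Cxcl5 and Lcn2, genes of the acute phase and of epithelial defence, held 143 CCl4, 22 BDL and 2 uninjured wells and was left unnamed. Its mean relative marker level was highest for hepatocytes, at 0.602, against 0.43 for bile duct cells and 0.375 for FB. These wells are thus not shown to be mesenchymal. H2-K1 stood there at 1884, 3018, 2118 and 2151 RPM in the 4 CCl4 portions with at least 5 wells and at 4513 and 4421 RPM in the 2 BDL portions. B2m stood at 4151, 5937, 5369 and 4545 RPM in CCl4 and 6366 and 5873 in BDL portions. All of these lay above the highest FB-like portion for H2-K1, at 1121 RPM.

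Within this cluster Tap1 stood at 275 and 405 RPM in BDL against 34.9 to 64.7 in CCl4 portions. H2-D1 stood at 1518 and 1912 against 859, 1185, 1088 and 1030. Psmb8, at 221 and 492 RPM against 198 to 230, overlapped. With 2 portions in 1 group these are values without a test. The BDL portions, of 8 and 11 wells, lay on plates 1 and 4 and the CCl4 portions on plates 3 and 5. Injury and plate therefore cannot be told apart here. The class II gene H2-Ab1 was among the 10 leading genes of the cluster, and in the BDL portion of plate 4 leucocyte markers summed to 871 RPM and hepatocyte markers to 6767 RPM. Their part in the values was not tested.

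Across 31 SS2 class-by-portion sums of at least 10 wells, the genes of the list did not form 1 pattern. Over these sums B2m and H2-D1 had a Pearson correlation of log2(RPM + 1) of 0.970 and H2-K1 and H2-D1 of 0.971, whereas B2m and Tap1 had 0.390. The points share classes, plates and portions, so these are descriptions. The gap between B2m and Tap1 was not seen over the 7 10X sums, where it was 0.978.

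Outside the list, the genes most like B2m among 7555 genes were Lgals3bp (0.947), Dse (0.942), Ifnar2 (0.942), Ly6e (0.941) and Cxcl12 (0.926). Those most like H2-K1 were Lgals3bp (0.913), Eng (0.908), Dse (0.905), Hhip (0.899) and Angptl2 (0.894). Psmb8 was nearest to Rcn1 (0.864), H2-T23 (0.858), Dtx4 (0.849), Pcdhgc3 (0.836) and Ntn1 (0.834). For Tap1 the nearest included Mapk7 (0.751), Dennd1a (0.718), Plekhf2 (0.653) and Ppt1 (0.634), and the likeness to Mapk7 was -0.40 over the 10X sums, so that it did not carry over between the assays.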

How the data were processed

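Per the deposited files, 10X libraries were read as UMI counts per gene and cell (Cell Ranger 2.1.0, mm10), and SS2 plates as read counts per gene and well (STAR alignment to mm10 with eGFP and spike-ins, then the authors' gene counter). Reads were neither realigned nor recounted, and multi-mapping of class I paralogs follows those tools. Cells with at least 300 genes and at most 30% mitochondrial UMIs were kept, and SS2 wells within 3 median absolute deviations. Cells were clustered on 2000 variable genes and 10 components (30 neighbours, Leiden resolution 0.8) and clusters were named from marker lists with a scoring rule set after the clusters were looked at. Doublets, marked by likeness to simulated pairs of cells, were left out only as an alternative. UMIs were summed per class and library and given as CPM. SS2 reads were summed per portion with at least 5 wells of a class and tested with edgeR 4.0.16 (quasi-likelihood, TMM, plate as a term), with DESeq2 1.42.0 as an alternative and limma 3.58.1 for the interaction, in R 4.3.3. The scripts were tested on simulated data. At the real spread between SS2 portions few of the genes changed in simulated counts were recovered, and nearly all at a lower spread. A gene not called in SS2 may therefore still differ. All 10 genes were reported in every comparison, pathway genes where the fold or test called them, and genes of like pattern by correlation at a mean of at least 20 RPM. The genes and lists were chosen with earlier results of these data known, the marker lists of HSC, FB and VSMC came from an earlier report on them, and the study picked the zonation genes from these libraries. Plate portions share no replicate numbers across groups other than by plate, which is the term in the fit. Some genes of the lists are not reported here. Intervals cover counting error only.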

Additional observations from a re-analysis of the deposited data

Results flagged for a closer look

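Of 54 groups of 4 or 5 SS2 portions examined for a single value far from the rest, 7 held one, and chance gives about 1 in 20. In FB-like wells, B2m in the uninjured portion of plate 2 stood at 4256 RPM with the next at 3068, H2-D1 in the BDL portion of plate 4 at 572 RPM with the next at 367, and Tapbp in a CCl4 portion of plate 5 at 313 RPM with the next at 449. Nlrc5 in a BDL portion of plate 2 stood at 26.3 RPM, from 86 reads in 9 wells, with the next at 5.18. In VSMC-like wells, Tapbp in the uninjured portion of plate 5 stood at 223 RPM with the next at 163, Psmb9 in a CCl4 portion of plate 5 at 23.4 RPM with the next at 3.86, and Nlrc5 in a CCl4 portion of plate 3 at 0.790 RPM, from 16 reads. In wells of no named class, those of the cluster led by Saa3 and Lcn2, H2-K1 stood at 1884 RPM in the lowest injured portion, above every uninjured FB-like and VSMC-like portion.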

How the results depend on the processing

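Shares in brackets are those of all genes in the same direction. In the HSC-like cells at 6 weeks the count of genes lower past 1.5-fold went from 2 (11.31%) to 1 with TMM (4.04%) or DESeq2 scaling (4.25%). It was also 1 with mitochondrial and ribosomal protein genes out of the total (5.86%) or without the stress-led clusters (12.85%). At 2-fold the count was 0 (1.60%). For VSMC-like cells the count of higher genes was 1 with cells thinned to 2000 UMIs (8.66%) or without doublets (7.70%). With no minimum level it was 2 for VSMC-like cells (20.59%) and 2 for FB-like cells (15.49%). Past the fold, the sign turned for H2-Q6 in VSMC-like cells (-0.14 by the mean of each cell's CPM, -1.34 without doublets) and Nlrc5 in FB-like cells (-0.42 thinned), all on few UMIs. Short of the fold, signs also turned for B2m and Tapbp in HSC-like cells at 6 weeks, where the differences were near 0, for Psmb9 in FB-like cells when thinned, for Tapbp in VSMC-like cells under another scaling, and for several genes over the whole protocol 1 library. In SS2 the 0 genes of the list called in FB-like wells after BDL became 1, H2-K1, with DESeq2 or without a filter on low counts. Leaving out 1 portion at a time gave 0 to 0 calls, and moved H2-K1 from -1.32 to -0.67, and without plate 2, a choice made after seeing the data, it was -0.66. Over all genes, no filter called 159 higher and 94 lower after BDL and 19 and 13 after CCl4, and leaving out plate, the replicate block, called 15 and 7 after BDL. Of the values of single genes, 2142 were counted as unchanged, 103 moved by more than the counting error, and 2, both H2-K1 as above, became calls. Being counted as unchanged did not require the same sign, and SS2 values with no call often changed theirs. After CCl4, Psmb8 in FB-like wells ran from -0.448 to 0.999 and Tap1 in VSMC-like wells from -1.34 to 1.975. Depth limited Nlrc5 and H2-Q6 outside HSC-like cells.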
